A study of Schmidtea mediterranea with 16 samples.

Results

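The 42 genes described here were chosen out of 26833 in the deposited count matrix because their level differed between irradiated and unirradiated atm(RNAi) cells and differed little in the unc-22(RNAi) control. Schmidtea mediterranea is a planarian flatworm, and the samples are X1 cells, a flow cytometry gate for cells of high DNA content. Poly(A) RNA was sequenced from 16 libraries in 4 groups of 4, since either RNAi, unc-22 or atm, was combined with irradiation or with none. The irradiated groups received 2000 rads and were collected 1 day later, and every animal had been given 1 of the 2 RNAi treatments, so no group was left without RNAi.

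Planarian X1 cells are known to consist largely of neoblasts, the dividing stem cells that radiation removes. ATM is a protein kinase that is activated at broken DNA and passes the signal on to cell cycle arrest, repair and cell death. The unc-22 gene comes from Caenorhabditis elegans and its double-stranded RNA is a usual control in planarian RNAi. The files give dd_Smed_v6 transcript identifiers without gene names, so a pair of identifiers per direction is printed and the other genes are given by rank and count. The knockdown of atm and the cell type could not be checked against named genes here, and no function is given for any of the 42.

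The choice used levels as log2(CPM + 1), where CPM are reads of a gene per 1000000 reads counted in genes of the library. Of the 26833 genes, 11075 had a mean of at least 3 CPM in unirradiated or irradiated atm(RNAi). In 2417 of these the 4 irradiated atm(RNAi) libraries lay all above or all below the 4 unirradiated ones, which is 21.8% of the 11075. In 1021 of these the mean difference was at least 0.6, with 548 higher (4.95% of the 11075) and 473 lower (4.27%) after irradiation. The last condition kept a gene where the difference in unc-22(RNAi) was at most 0.35 of that in atm(RNAi) in size, and 42 genes, 4.11% of the 1021, met it. The limit of 150 genes was not reached. There were 21 genes with the higher level after irradiation in atm(RNAi), called the higher genes below, and 21 lower genes. Of the 979 genes that missed the last condition, 970 had moved in the same direction in unc-22(RNAi) and 9 in the opposite direction.

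**Figure D1:**
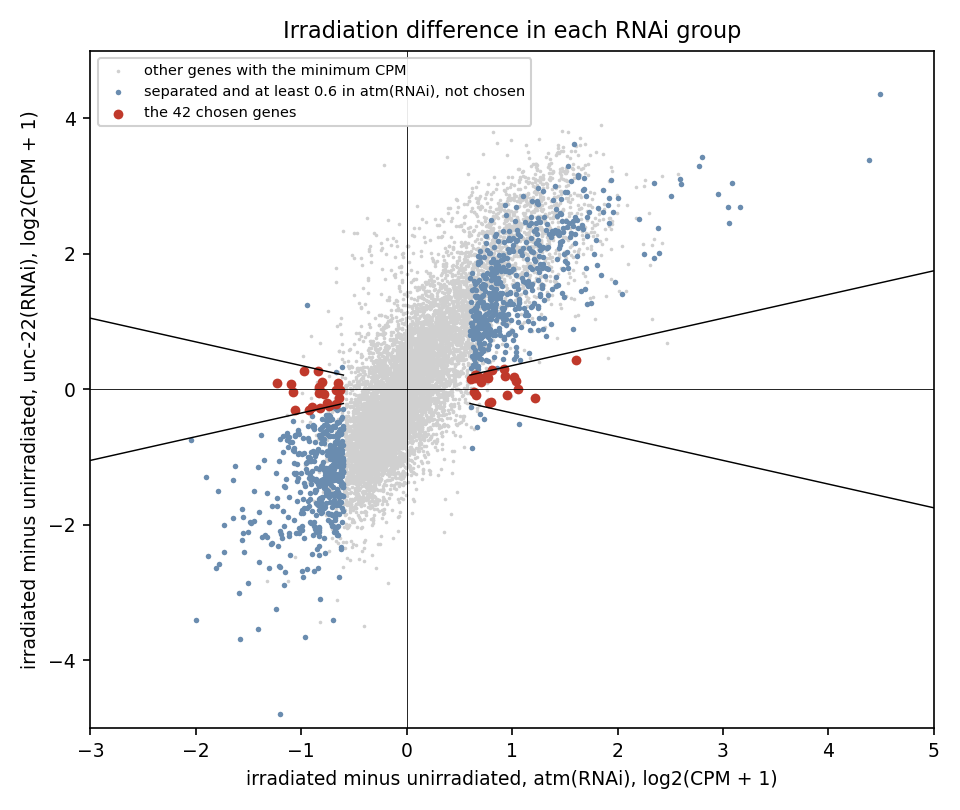
Each point is 1 gene with at least 3 CPM, placed by its irradiated minus unirradiated difference in log2(CPM + 1), in atm(RNAi) on the horizontal and in unc-22(RNAi) on the vertical axis. The black lines mark the limit of 0.35, and the 42 chosen genes lie between them at the edge of a cloud in which the differences share their sign in 970 of the 979 genes that missed the limit.

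The thresholds did not fall in gaps. The smallest difference inside the limit of 0.6 was 0.61 and the largest outside it was 0.59. The ratio of the differences was 0.345 for the last gene inside the limit of 0.35 and 0.354 for the first outside it. The mean CPM was 3.02 for the lowest gene inside and 2.995 for the highest gene outside.

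The 16 libraries held 6.99 to 26.5 M reads in genes (M, 1000000 reads). Irradiated unc-22(RNAi) had the fewest, between 6.99 and 15.1 M, against 13.9 to 21.8 M in irradiated atm(RNAi) and at least 17.8 M in each unirradiated library. The share of unmapped reads was 50.5% to 70.9% in irradiated unc-22(RNAi) and at most 46.4% in any other library. These measures therefore moved with the group in which the 42 genes were required to differ little, and their part in the result was not tested. Nothing in the labels says that the libraries of a group came from separate animals or sorts, so p-values measure the spread between these samples, which may be technical.

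The 42 genes were mostly low in abundance. Their median level over the 16 libraries was 6.54 CPM, against 19.3 CPM for the 11075 genes and 12.98 CPM for the 979 genes that missed the last condition. A mean under 10 CPM was found for 29 of the 42 and a mean over 50 CPM for 3. The median gene had 119 reads per library, and 9 genes had a library with under 10 reads. The difference in atm(RNAi) reached 1 in log2(CPM + 1) for 9 genes, and the log2 fold change fitted by edgeR reached 1 in size for 17, since the pseudocount understates the change of low genes. All of these genes were under 10 CPM. The reads carry no molecular identifiers, so their number speaks to counting error alone and amplified copies may be among them.

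Over the 21 higher genes it ranged from 0.61 to 1.61 in log2(CPM + 1), with a median of 0.78. Over the 21 lower genes it ranged from -1.23 to -0.64, with a median of -0.82. In unc-22(RNAi) the difference ranged from -0.20 to 0.44 for the higher genes (median 0.16) and from -0.31 to 0.27 for the lower genes (median -0.05). It had the direction seen in atm(RNAi) for 15 of 21 higher and 14 of 21 lower genes. These values chose the genes and are given as a description. Over all 11075 genes the median difference was -0.03 in atm(RNAi) and -0.06 in unc-22(RNAi).

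Of the genes shown by identifier, dd_Smed_v6_2769_0_1 is the higher gene with the smallest p for a difference between the irradiation effects. Its level was 79.2, 94.5, 80.2 and 75.0 CPM in unirradiated unc-22(RNAi) and 87.4, 82.9, 81.4 and 81.7 CPM in unirradiated atm(RNAi), in order of replicate 1 to 4. It was 63.4, 141, 74.3 and 60.2 CPM in irradiated unc-22(RNAi) and 115, 141, 135 and 132 CPM in irradiated atm(RNAi). The unirradiated groups overlapped, irradiated atm(RNAi) was above both of them, and replicate 2 of irradiated unc-22(RNAi) was as high as the highest irradiated atm(RNAi) library while its other replicates were below every unirradiated atm(RNAi) library. The group means were 82.2 ± 8.51, 83.4 ± 2.77, 84.7 ± 38.0 and 131 ± 10.9 CPM (SD, n = 4 each), in the order given. Its log2 fold change with irradiation was 0.64 ± 0.17 (SE) in atm(RNAi) and -0.14 ± 0.17 (SE) in unc-22(RNAi). The difference of these effects, 0.78 ± 0.24 (SE), did not pass the edgeR quasi-likelihood test, at a Benjamini-Hochberg adjusted p of 0.0795 over all genes tested. That call depended on 1 library, since without irradiated unc-22(RNAi) replicate 2 the estimate was 1.06 and the adjusted p 0.00162 in edgeR. With the replicate number as a block it was 0.82, with an adjusted p of 0.0371 in edgeR. Over its other alternatives the adjusted p ran from 0.0527 to 0.861.

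The higher gene with the largest difference in atm(RNAi) was dd_Smed_v6_857_0_1, at low counts. It had 4.50, 1.04, 6.74 and 3.06 CPM in unirradiated unc-22(RNAi) and 2.16, 1.89, 0.949 and 1.97 CPM in unirradiated atm(RNAi). After irradiation it had 5.15, 5.75, 2.91 and 6.28 CPM in unc-22(RNAi) and 4.09, 20.1, 8.61 and 3.42 CPM in atm(RNAi). Irradiated atm(RNAi) overlapped both unc-22(RNAi) groups, and 2 of its libraries lay below 3 of the irradiated unc-22(RNAi) libraries. Unirradiated atm(RNAi) had the lowest mean, 1.74 ± 0.539 CPM against 3.83 ± 2.40 CPM in unirradiated unc-22(RNAi) (SD, n = 4 each), with libraries of the groups overlapping. The log2 fold change with irradiation was 2.30 ± 0.57 (SE) in atm(RNAi), and the difference of the effects was 2.07 ± 0.78 (SE), with an adjusted p of 0.138 in edgeR.

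Among the lower genes, dd_Smed_v6_1394_0_1 had the largest difference in atm(RNAi). Its level was 3.91, 6.47, 4.77 and 3.55 CPM in unirradiated unc-22(RNAi) and 7.75, 5.43, 5.58 and 5.48 CPM in unirradiated atm(RNAi). It was 5.72, 6.60, 7.99 and 1.69 CPM in irradiated unc-22(RNAi) and 0.597, 3.32, 2.47 and 2.33 CPM in irradiated atm(RNAi). All 4 irradiated atm(RNAi) libraries were below all unirradiated libraries, and replicate 4 of irradiated unc-22(RNAi), at 1.69 CPM, was below 3 of the 4 irradiated atm(RNAi) libraries. Its log2 fold change with irradiation in atm(RNAi) was -1.51 ± 0.46 (SE) with an adjusted p of 0.0681 in edgeR and 0.0165 in DESeq2, and the difference of the effects was -1.59 ± 0.64 (SE), with an adjusted p of 0.166.

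The lower gene with the smallest p for the difference of the effects was dd_Smed_v6_736_0_1. It had 7.77, 5.97, 5.89 and 4.38 CPM in unirradiated unc-22(RNAi) and 9.24, 5.96, 9.49 and 8.78 CPM in unirradiated atm(RNAi). After irradiation it had 8.44, 12.8, 3.37 and 7.49 CPM in unc-22(RNAi) and 3.12, 3.18, 5.08 and 3.75 CPM in atm(RNAi). Replicate 3 of irradiated unc-22(RNAi) lay inside the range of irradiated atm(RNAi), replicate 2 was above every other library, and the irradiated atm(RNAi) libraries overlapped unirradiated unc-22(RNAi). The difference of the effects was -1.38 ± 0.47 (SE), with an adjusted p of 0.104 in edgeR. It passed in DESeq2, at -1.49 and an adjusted p of 0.0291, and in edgeR without irradiated unc-22(RNAi) replicate 3, at -1.63 and an adjusted p of 0.0315. Over its other alternatives the adjusted p ran from 0.0896 to 0.852.

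**Figure D2:**
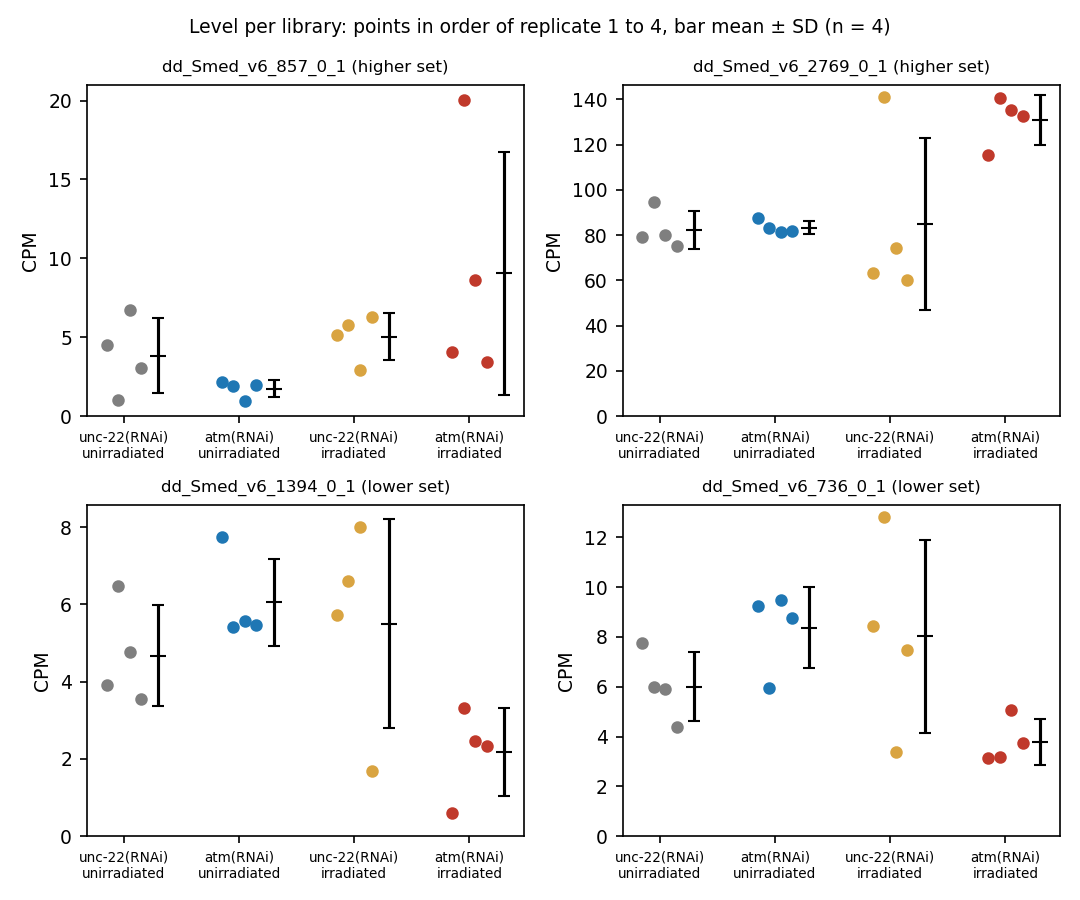
CPM of the 4 genes shown by identifier, per library, on linear axes that start at 0; points are replicates 1 to 4 and bars the mean ± SD of 4 libraries. For dd_Smed_v6_2769_0_1 the irradiated atm(RNAi) libraries span 115 to 141 CPM and replicate 2 of irradiated unc-22(RNAi) stands at 141 CPM, above its other replicates.

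The edgeR test was run on all 17843 genes that passed the filter on low counts, all 42 among them. Because the choice required complete separation in atm(RNAi), these counts describe the choice and are not independent evidence. Irradiated against unirradiated atm(RNAi) was called for 8 of the 42 at an adjusted p under 0.05, where 3.58% of all genes tested were called. These were 4 higher genes, where 2.42% of all genes were called higher, and 4 lower genes, where 1.15% were called lower, with mean levels of 4.91 to 102 CPM and adjusted p values of 0.00988 to 0.0495 (edgeR quasi-likelihood, Benjamini-Hochberg). DESeq2 called 24 of the 42, where it called 13.1% of the genes to which it gave an adjusted p. The edgeR count was 0 without unirradiated atm(RNAi) replicate 3, where 154 of all 18666 genes tested were called. It was 16 without irradiated unc-22(RNAi) replicate 2, where 1359 of all 18472 were called. Single libraries thus moved it by more than 1.5 times, and the other such libraries are listed with the processing alternatives.

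Irradiated against unirradiated unc-22(RNAi) was called for 0 of the 42 by edgeR, where 47.3% of all genes tested were called, and for 0 by DESeq2, which called 45% of all genes. The choice required a small difference here. An unadjusted p under 0.05 was found for 1 of the 42 and for 54.1% of all genes (edgeR). In no gene of the 42 did the 4 irradiated unc-22(RNAi) libraries separate from the 4 unirradiated ones, which happened in 51.3% of the 11075 genes.

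The difference between the irradiation effects in atm(RNAi) and unc-22(RNAi) was tested as the interaction of RNAi and irradiation. It was called for 0 of the 42 by the edgeR quasi-likelihood test, where 3.58% of all genes tested were called, 3.07% in the positive and 0.504% in the negative direction. An unadjusted p under 0.05 was found for 17 of the 42, or 40.5%, and for 21.5% of all genes. DESeq2 called 2 of the 38 to which it gave an adjusted p, both lower genes, and 12.1% of all genes. The adjusted p values ran from 0.0795 to 0.648 (edgeR, Benjamini-Hochberg), although the choice favoured genes with a large difference. The size of the interaction was 0.33 to 2.07 in log2, with a median of 0.86, and its standard error was 0.21 to 1.16, with a median of 0.48. A p that misses the threshold does not show that the effects were equal.

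**Figure D3:**
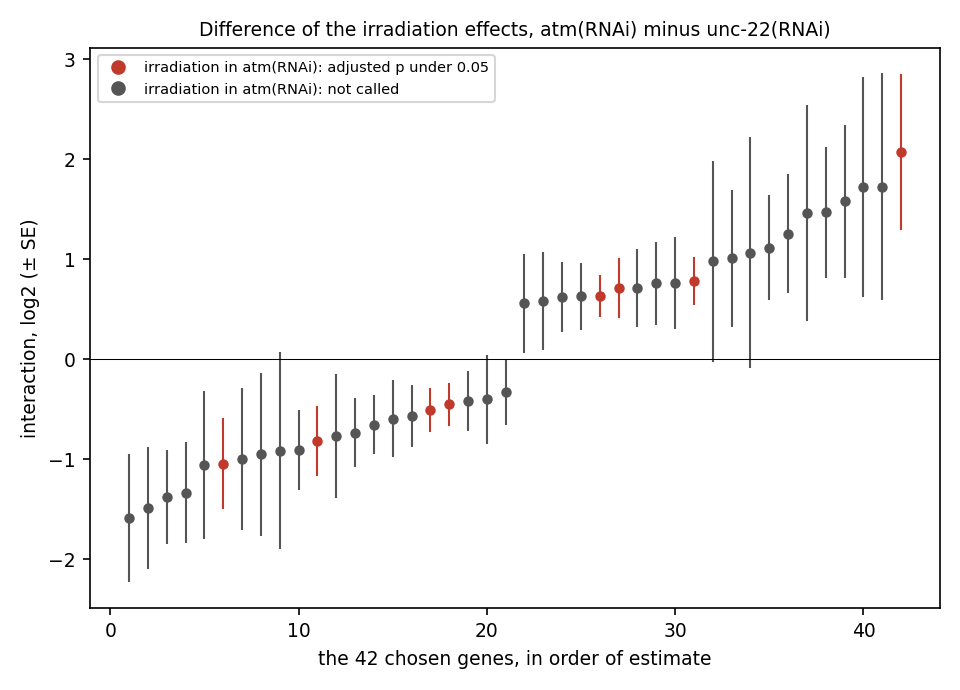
Interaction estimate of each of the 42 genes in log2, with 1 standard error on each side, in order of size. Red points mark the 8 genes called with irradiation in atm(RNAi); 0 of the 42 estimates passed an adjusted p of 0.05 in edgeR.

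The small mean difference in unc-22(RNAi) often stood for libraries that lay far apart. In 31 of the 42 genes the range of the 4 irradiated unc-22(RNAi) libraries was wider than the whole difference in atm(RNAi). Their SD in log2(CPM + 1) had a median of 0.50, against 0.29 in irradiated atm(RNAi), 0.29 in unirradiated unc-22(RNAi) and 0.24 in unirradiated atm(RNAi). In the 11075 genes the medians were 0.42, 0.27, 0.22 and 0.17 in the same order. They were 0.47, 0.32, 0.25 and 0.18 in the 979 genes that missed the last condition. The wide spread of irradiated unc-22(RNAi) was thus not particular to the 42. The counts of genes in this paragraph were not taken over other genes. At least 1 irradiated unc-22(RNAi) library reached as far as the nearest irradiated atm(RNAi) library in 14 of 21 higher and 18 of 21 lower genes, and at least 2 did so in 6 higher and 11 lower genes.

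Replicate 2 of irradiated unc-22(RNAi) stood apart among the lower genes. Relative to the mean of unirradiated unc-22(RNAi), the mean log2(CPM + 1) over the 21 lower genes was -0.32, 0.38, -0.21 and -0.08 in replicates 1 to 4 of irradiated unc-22(RNAi). It was -0.68, -0.41, -0.57 and -0.61 in irradiated atm(RNAi) and 0.24 to 0.34 in unirradiated atm(RNAi). The lower genes were therefore below the unirradiated control mean in 3 of 4 irradiated control libraries and above it in the other. Since the choice kept the mean of these libraries near the control mean, libraries below it had to be offset by others above it. Without replicate 2 the median difference in unc-22(RNAi) over these genes was -0.22 in place of -0.05, and 18 of 21 had the direction seen in atm(RNAi). Without replicate 1, 3 or 4 the median was 0.06, -0.0002 and -0.07, and 9, 11 and 12 of 21 had that direction. Over the 21 higher genes the means were 0.23, -0.02, 0.13 and 0.08 in irradiated unc-22(RNAi) and 0.67 to 0.84 in irradiated atm(RNAi). Replicate 2 also had the highest share of unmapped reads, 70.9%. Replicate 1, at -0.32 over the lower genes, had the next highest, 65.6%. The part of this share in the values was not tested. Without replicate 2, 15 of the 42 genes passed beyond the limit of 0.35, against 12 without replicate 1, 13 without replicate 3 and 9 without replicate 4 of the same group.

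**Figure D4:**
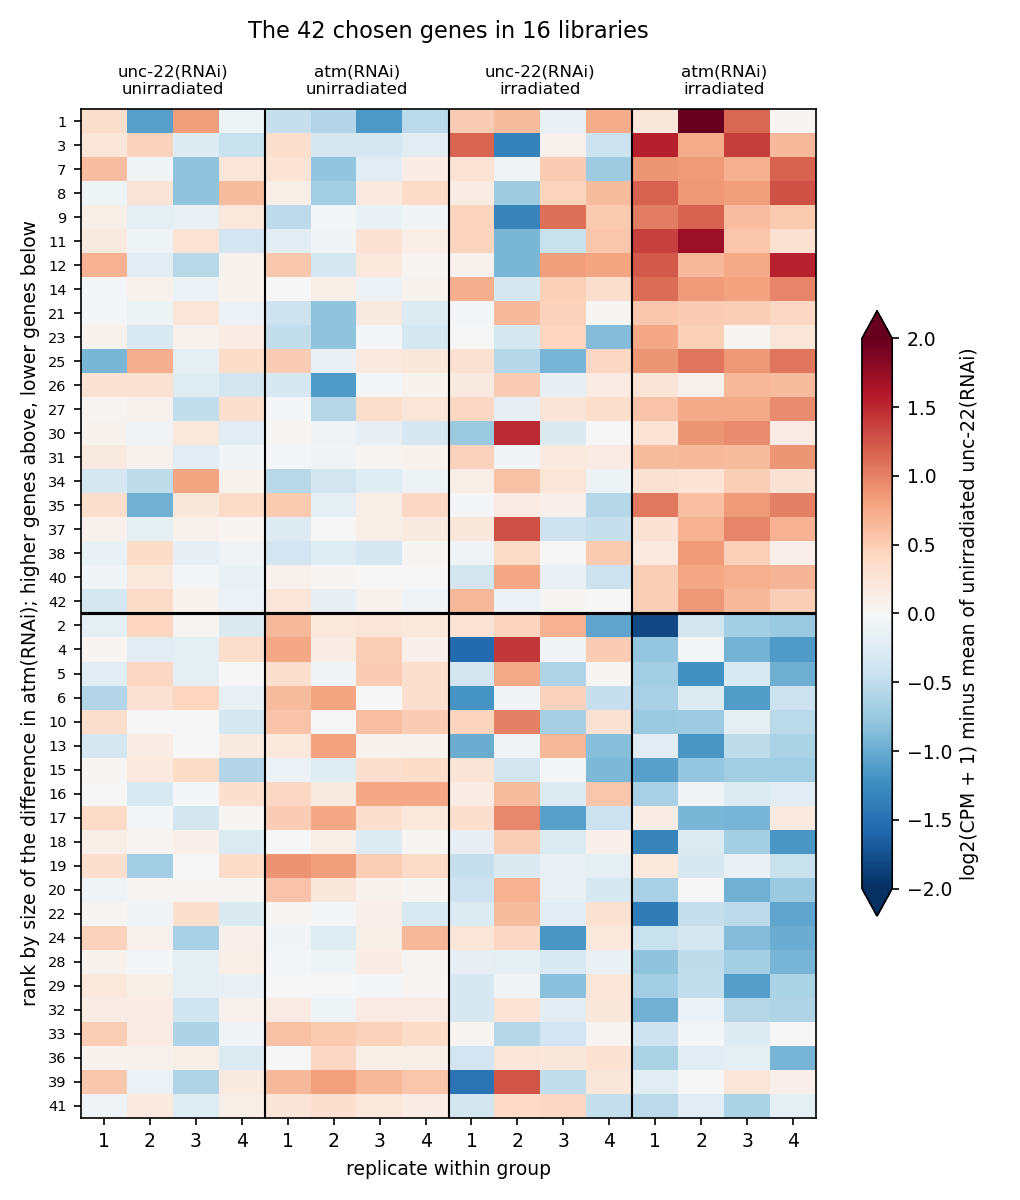
Level of the 42 genes (lines, by rank of their difference in atm(RNAi)) in the 16 libraries (columns), as log2(CPM + 1) minus the mean of unirradiated unc-22(RNAi). Irradiated atm(RNAi) is mostly red for higher and mostly blue for lower genes, while irradiated unc-22(RNAi) mixes colours, with replicate 2 red for many lower genes (mean 0.38).

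The size of the shift per library was also compared with that of the 979 genes that missed the last condition. Counted in the direction of the change from the mean of unirradiated atm(RNAi), their mean shift over the 42 genes was 0.90, 0.82, 0.85 and 0.83 in replicates 1 to 4. Over the 979 genes it was 0.65, 1.23, 1.12 and 0.91, so replicate 1 moved least there and most here. Counted from the same unirradiated atm(RNAi) mean, irradiated unc-22(RNAi) replicates 1 to 4 lay at 1.38, 1.67, 1.43 and 1.53 over the 979 genes. They lay at 0.47, -0.01, 0.36 and 0.28 over the 42. Unirradiated unc-22(RNAi) itself lay at 0.18, 0.15, 0.22 and 0.22 over the 42 and at -0.02 to 0.06 over the 979. Part of the value over the 42 was thus present without irradiation. All these values come from libraries that the choice used.

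Part of the contrast lay in the unirradiated cells. The difference of the 2 irradiation differences equals the atm(RNAi) minus unc-22(RNAi) difference in irradiated cells less that in unirradiated cells. For the higher genes the irradiated cells made up a median of 99.0% of it, and for the lower genes 71.1%. In 10 of the 42 genes, 5 higher and 5 lower, the unirradiated cells made up most of it. Unirradiated atm(RNAi) had the higher mean in 19 of 21 lower genes, with a median difference of 0.28, against 57.8% of the 11075 genes. Since the choice needed high unirradiated atm(RNAi) libraries for the lower genes, this share is not independent of it. Knockdown in unirradiated cells was called for 0 of the 42 and 0% of all genes tested in edgeR, with 1 of the 42 and 1.56% of all genes at an unadjusted p under 0.05, and for 0 of the 42 and 0.00379% of all genes by DESeq2. The libraries of these groups separated in 2 of the 42 genes, both with the higher level in atm(RNAi), and in 2.57% of the 11075.

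In irradiated cells the atm(RNAi) mean lay beyond the unc-22(RNAi) mean, in the direction of the change, for 21 of 21 higher and 18 of 21 lower genes. The choice favoured this, and over the 11075 genes atm(RNAi) had the higher mean in 54.1%. The median difference was 0.57 for the higher and -0.55 for the lower genes. The edgeR test called 8 of the 42, or 19%, where 14.8% of all genes tested were called. They were 5 higher genes, against 11.5% of all genes called higher, and 3 lower genes, against 3.36% called lower. With RLE in place of TMM factors the called genes were 2 higher and 5 lower. Complete separation of these groups was seen in 10 of the 42 and in 19.1% of the 11075, so the share was near that of the other genes. The smallest adjusted p was 0.00754, that of dd_Smed_v6_2769_0_1, with a log2 fold change of 0.76 ± 0.17 (SE; edgeR quasi-likelihood, Benjamini-Hochberg). The 2-group fit of the irradiated libraries called 0 of the 42 and 0 of 15486 genes tested, with 12 of the 42 and 22.5% of all genes at an unadjusted p under 0.05. DESeq2 called 14 of the 42 and 25% of all genes. Of the 16 libraries left out in turn, irradiated atm(RNAi) replicates 1 and 4 each took the number called to 2, and irradiated atm(RNAi) replicate 3, unirradiated atm(RNAi) replicate 4 and irradiated unc-22(RNAi) replicate 4 each took it to 4. In these 5 fits 1157 to 2122 of all genes were called, against 2645 with all libraries.

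The libraries carry the tag L7 (replicates 3 and 4) or L8 (replicates 1 and 2) in the names of their files, with 2 libraries of each group per tag. Over the 21 higher genes the median difference in atm(RNAi) was 0.69 in L7 and 0.90 in L8, and over the 21 lower genes it was -0.88 and -0.85. The limit on the unc-22(RNAi) difference was met within L7 by 6 higher and 18 lower genes, and within L8 by 13 higher and 13 lower genes. In L7, 10 of the 15 higher genes that missed it had moved upward in unc-22(RNAi) too.

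The choice was also repeated on the libraries of 1 tag and read in those of the other, which the choice had then not used. On L7 it gave 44 higher and 128 lower genes. In L8 the 44 higher genes had a median difference of 0.40 in atm(RNAi) and 0.40 in unc-22(RNAi), and the 128 lower genes -0.23 and -0.31. On L8 it gave 118 higher and 40 lower genes. In L7 their median differences were 0.25 in atm(RNAi) and 0.26 in unc-22(RNAi) for the higher genes and -0.45 and -0.35 for the lower. The direction in atm(RNAi) was kept by 37 of 44, 102 of 128, 93 of 118 and 35 of 40 genes, where 53.2%, 46.8%, 42.03% and 57.97% of all genes with the minimum CPM had that sign. Most genes thus had the same direction in the libraries not used, where the median differences of the RNAi groups lay close to each other. All conditions, with the same direction, were met again there by 2 of 44, 8 of 128, 2 of 118 and 8 of 40 genes, or 4.55%, 6.25%, 1.69% and 20%. Of all genes with the minimum CPM in those libraries, 1.06%, 0.359%, 0.397% and 1.16% met them in that direction. These shares are not like for like, since all genes had not been chosen for a difference in atm(RNAi). The conditions on separation and size in atm(RNAi), without that on unc-22(RNAi), were met again by 10 of 44, 19 of 128, 21 of 118 and 16 of 40 genes. These medians and shares carry no test. Only 5 of the 44, 15 of the 128, 10 of the 118 and 11 of the 40 genes are among the 42. The values thus describe mostly other genes, chosen on 2 libraries per group.

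**Figure D5:**
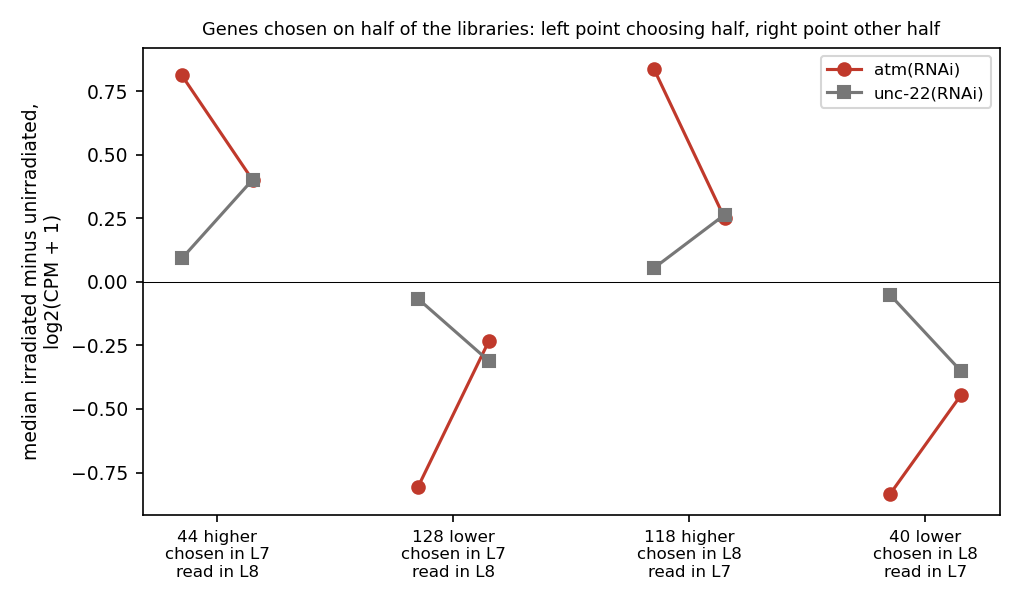
Median irradiated minus unirradiated difference, in log2(CPM + 1), of genes chosen on the libraries of 1 file-name tag (left point of each pair) and read in the libraries of the other (right point), for atm(RNAi) in red and unc-22(RNAi) in grey. For the 44 higher genes chosen in L7 the points meet at 0.40 in L8.

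The directional kit leaves few reads on the opposite strand, 1.33% to 2.42% of the reads counted. The choice had not used these reads, but they come from the same libraries. The 42 genes had a median of 21 such reads over all 16 libraries together, and 5 had none. In the fit of 4890 genes, 2563 were higher after irradiation in atm(RNAi). Only 6 of the 42 passed the filter on low counts there, and all 6, 3 higher and 3 lower, had the direction of the main strand in atm(RNAi). With the library sizes of the matrix 8 were tested and 6 had it, 3 of 3 higher and 3 of 5 lower genes. The edgeR test called 0 of the 6 and 0% of the 4890, with 0 of the 6 at an unadjusted p under 0.05, so this strand was too shallow to test the genes. No gene of the 42 had more reads on the opposite than on the counted strand.

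The identifiers show which genes hold several transcripts. The reads of 10 of the 42 genes were summed over several transcripts, 8 of them higher and 2 lower genes, or 23.8% against 15.1% of the 11075 genes. In 5 of these 10, at least 2 transcripts had a mean of 10 or more reads per library, and every such transcript had the direction of its gene in atm(RNAi). Their reads are part of the counts that chose the genes, so this is a description. Only 1 of the 42, a lower gene, shares its assembly component with another gene of the matrix, against 1.92% of the 11075 genes. Reads that mapped to several places, 4.37% to 11.5% of all reads per library, are not in the counts, so genes with close copies are counted too low. In bulk samples such as these, fewer cells of a type and less RNA per cell cannot be told apart.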

How the data were processed

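Raw read counts per gene were deposited by the authors as a matrix of 16 libraries and as 1 file per library with counts for each strand. Trim Galore 0.6.5 and STAR 2.7.9 are named in the submitters' processing notes, without settings; the genome build is not given in the sources used here. Of 429328 matrix cells, 0 differed from the per-library counts of 1 strand summed over transcripts sharing the first 2 numbers of their identifier.

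CPM used column sums and log2(CPM + 1). The genes and lists were chosen with earlier results of these data known. Tests used edgeR 4.0.16 in R 4.3.3: filterByExpr, TMM, 1 quasi-likelihood fit with a coefficient per group over 16 libraries, and Benjamini-Hochberg adjustment over 17843 genes. Fold changes and their SE come from that fit. DESeq2 1.42.0 was an alternative. Genes named are, per direction, that with the largest difference in atm(RNAi) and that with the smallest interaction p. Marker and pathway lists could not be matched to identifiers and were not used here. The 24 replicate pairs all differed by more than sampling noise (chi-square per degree of freedom at least 13.0). Scripts were tested on simulated data. No sequence was used here.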

Additional observations from a re-analysis of the deposited data

Results flagged for a closer look

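In 32 sets of 4 values examined, each 1 measure in 1 group of libraries, 3 held a library far from the other 3 of its group. Chance alone flags about 1 in 20 independent sets. These sets share the same 16 libraries, and those on means over the chosen genes were shaped by the choice. Unirradiated atm(RNAi) replicate 2 had a mean of -0.345 over the 21 higher genes, in log2(CPM + 1) relative to unirradiated unc-22(RNAi), while the other 3 lay between -0.05 and 0.00. Unirradiated atm(RNAi) replicate 1 had 7.75 CPM of dd_Smed_v6_1394_0_1, against 5.43 to 5.58 CPM in the others. Irradiated atm(RNAi) replicate 2 had 13.9 M reads in genes, against 21.1 to 21.8 M in the others. The part of these libraries in the results was measured by leaving each out, as given with the processing alternatives.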

How the results depend on the processing

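The number of genes chosen was 42. It became 69 with a minimum of 1 CPM, 19 with 10 CPM, 9 with a minimum difference of 1, 20 with a limit of 0.2 on the unc-22(RNAi) difference, 26 with a pseudocount of 3, and 172 and 158 on the L7 and L8 libraries alone. With a library left out it was 39 to 80 (66 without irradiated atm(RNAi) replicate 3 and 80 without its replicate 2), sharing 27 to 41 genes with the 42. With TMM-scaled sizes it was 48, sharing 30. Of these 48, 32 were higher and 16 lower genes, so the equal numbers by direction depended on the scaling. The other settings tried kept the number of genes chosen within 1.5 times. Irradiation in atm(RNAi) was called for 8 of the 42 (3.58% of all genes tested), 5 with RLE factors (3.51%), 24 with DESeq2 (13.1%) and 16 in the 2 groups alone (6.22%). It was called for 0 in L7 and 0 in L8 alone, where 0.365% and 0% of all genes were called. An unadjusted p under 0.05 (edgeR) was found there for 19 and 5 of the 42, and for 16.9% and 4.64% of all genes. With a library left out the number called was 0 to 16. It was under 6 without any 1 of irradiated atm(RNAi) replicates 2 to 4, unirradiated atm(RNAi) replicates 1 to 4 or unirradiated unc-22(RNAi) replicates 1 to 4, and 13 without irradiated unc-22(RNAi) replicate 1. Knockdown in irradiated cells was called for 8 (14.8% of all genes tested), for 4 without the filter (8.13%), 14 with DESeq2 (25%) and 3 in L7 (5.15%). It was called for 0 in L8 and 0 in the 2 groups alone, where 0% of all genes were called. With a library left out it was called for 2 to 12. The interaction was called for 0 (3.58% of all genes tested), for 2 with DESeq2 (12.1%), and 0 to 2 with a library left out. Irradiation in unc-22(RNAi) gave 0, and 0 to 2 with a library left out, and knockdown in unirradiated cells 0 in every setting. The opposite-strand count of 6 of 6 was 4 to 7 of 6 to 8 tested with a library left out, with 0 to 3 against the direction (4 of 7 without unirradiated atm(RNAi) replicate 1). The cause of these changes was not tested. RLE factors moved the median log2 fold change of all genes from 0.17 to 0.29 for irradiation in unc-22(RNAi), from 0.00 to -0.12 for knockdown in irradiated cells and from -0.01 to -0.12 for the interaction. The direction in atm(RNAi) is fixed by the choice. In the interaction all 42 genes kept theirs in every fit but those of L7 (40) and L8 (41), which the choice also favours. Libraries with the same replicate number had deviations correlated at -0.18 to 0.68 (median 0.13), over 0.1 in 18 of 24 pairs, against a median of -0.05 and 15 of 72 pairs for different numbers. The labels give no shared source and not every pair was over 0.1, so the numbers were not taken as a pairing. However, 6 of 16 libraries correlated best with their own number in every other group at once, a stricter condition than in a single group. This is a sign of shared structure that comes from the data and not the design. With the replicate number as a block, irradiation in atm(RNAi) was called for 9 of the 42 and for 4.85% of all genes tested. The interaction was then called for 1 of the 42, dd_Smed_v6_2769_0_1, and for 7.05% of all genes, against 3.58% without the block. Low counts limit the precision for the 29 genes under 10 CPM.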
